A study of Harpegnathos saltator with 27 samples.

Results

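Mhc (LOC105191850) and grh (LOC105181616) are the genes by which the study marks muscle and epithelium in the antenna, and they are 2 of the 14407 genes counted in these libraries. Both were chosen by gene ID as markers of the study and not by a measured value, but with earlier results of these data known. Both passed the minimum of a mean count of 10 per library that left 11086 genes for testing. The RNA came from whole antennae of Harpegnathos saltator pupae, a ponerine ant, that were either wild type (WT) or mutant for orco, the gene for the co-receptor that odorant receptors need to function. The labels give the mutant as an orco mutant without its allele, zygosity, or the sex or number of animals behind a library. Antennae were taken on 4 days of pupal life, D10, D15, D20, and D25, where D10 is day 10 from puparium formation. WT D10 and each mutant stage have 3 libraries and the other WT stages have 4, which makes 27. A p-value below measures the spread between these libraries, which may in part be technical, because no label says that they came from separate animals.

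Mhc encodes the heavy chain of muscle myosin, the motor protein of the thick filament, which pulls on thin filaments of actin, tropomyosin, and troponin when calcium is released in the fiber. In insects, muscles that move the antenna lie in its base and in the head, and the flagellum that carries the olfactory sensilla has no muscle of its own. grh encodes Grainy head, a transcription factor known from Drosophila for its role in epidermal cells, where it acts on genes of cell junctions and of the cuticle. The epidermis of a pupal antenna lays down the adult cuticle during pupal life, while sensory neurons and their support cells differentiate within it.

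Each library was given as a count of reads for each gene. The libraries held 3454610 to 52275933 counts on genes, and the shallowest were mutant D10 replicates 2 and 3. The labels also give 3 sequencing batches. Batch 1 holds WT replicates 1 to 3 of every stage with mutant D10 replicate 1 and mutant D20 replicate 1, batch 2 holds the other mutant D10 libraries and mutant D15 replicate 1, and batch 3 holds the remaining libraries. All 3 mutant D25 libraries are therefore in batch 3, together with a single WT D25 library, replicate 4. WT D25 replicate 3 had the lowest depth of any WT library, 8324206 counts, and 30.6% of unmapped reads, a share exceeded only by the 33.2% of mutant D10 replicate 2. Levels are given as normalized counts, that is, counts divided by the size factor of the library, and they are not comparable between genes because they are not scaled by length. Neither gene was low in these libraries, with 65 to 20620 raw counts of Mhc and 114 to 24010.0 raw counts of grh.

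Mhc rose over pupal development in both genotypes and ended higher in the mutants. At D25 it was 6.56-fold higher in mutant than in WT antennae in the edgeR fit, and the lowest mutant library exceeded the highest WT library. At D10, D15, and D20, the genotypes overlapped. In the model without batch, grh passed the test in no comparison of genotypes or stages, and its libraries were spread widely within most groups. With sequencing batch as a term, 4 of its changes between stages passed.

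At D10, the 3 WT libraries held 199.7, 500.3, and 57.7 normalized counts of Mhc. The mutant libraries held 270.3, 354, and 438. All 3 mutant values lay within the range of WT. At D15, WT libraries were at 391, 851, 1361, and 375 and mutant libraries were at 986, 803, and 338. The genotypes overlapped here too, and the highest and lowest libraries differed 3.63-fold within WT. At D20, WT libraries were at 6032, 5605, 4482, and 2037, and mutant libraries were at 607, 3390.4, and 4344. WT replicate 4, the single WT D20 library of batch 3, was the lowest of its group, and mutant replicate 1, the single mutant D20 library of batch 1, was the lowest of all. At D25, WT libraries were at 918, 5904, 299, and 3771. Mutant libraries were at 19769.8, 17349, and 16788. The WT D25 libraries covered a 19.8-fold range, whereas the mutant D25 libraries lay close together and above every other library of the series.

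**Figure D1:**
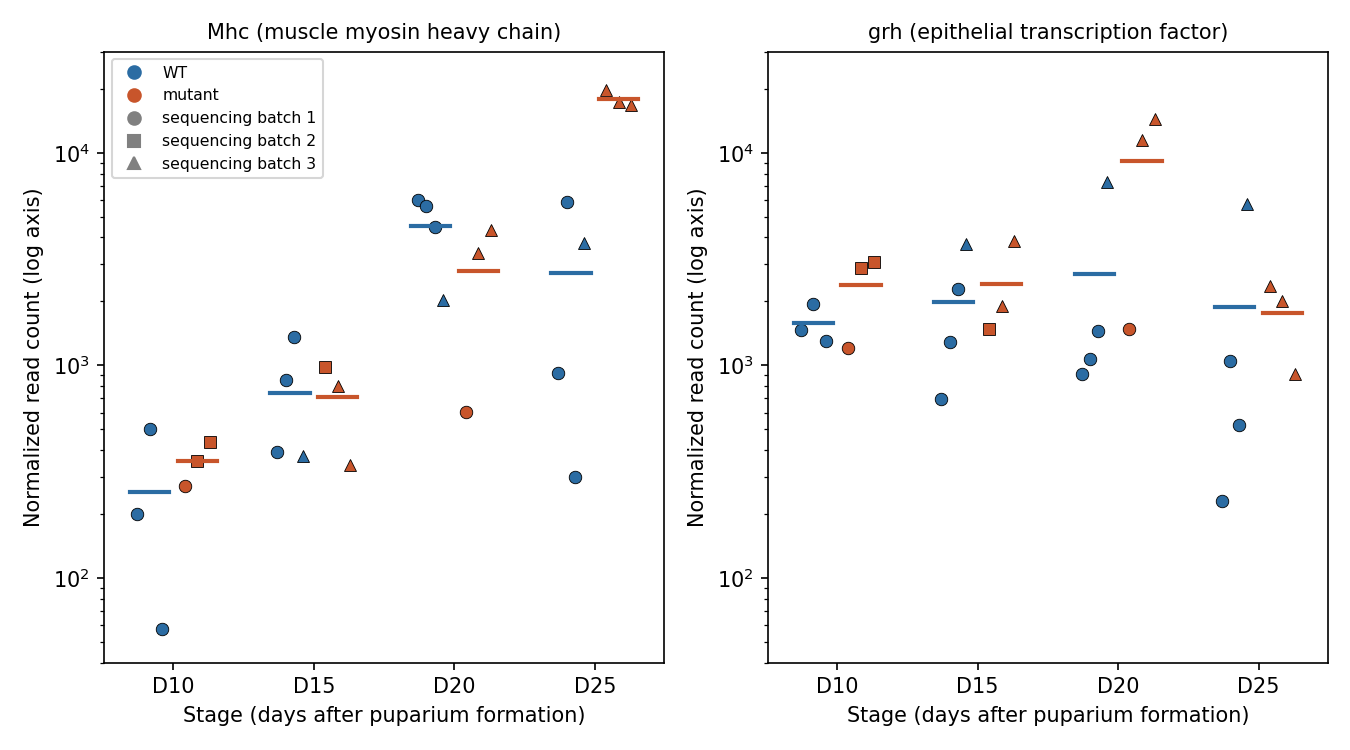
Normalized read count (log axis) of Mhc (left) and grh (right) in each of 27 libraries by stage in days after puparium formation; color gives the genotype, marker shape the sequencing batch, and bars the group mean. The 3 mutant D25 libraries lie between 16788 and 19769.8 for Mhc, above all WT libraries, whereas WT replicate 4 of batch 3 is the highest WT library for grh at D15, D20, and D25.

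From D10 to D25, the WT means of Mhc were 253 ± 226 (SD, n = 3), 745 ± 467, 4539 ± 1792, and 2723 ± 2605 (SD, n = 4 for each of the last 3). The mutant means were 354 ± 84.0, 709 ± 334, 2781 ± 1942, and 17969 ± 1585 (SD, n = 3 per stage). The order of the group means was thus the same in both genotypes up to D20. From D20 to D25, the mean fell within overlapping ranges of libraries in WT, whereas the D20 and D25 libraries of the mutants did not overlap.

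The genotypes were then compared stage by stage in edgeR, by two-sided quasi-likelihood tests whose p-values were adjusted over the 11086 genes (Benjamini-Hochberg). The log2 fold change of Mhc, mutant over WT, was 0.45 (SE 0.84, adjusted p = 1) at D10, −0.10 (SE 0.78, adjusted p = 0.965) at D15, and −0.76 (SE 0.79, adjusted p = 0.752) at D20. The 95% intervals, −1.31 to 2.20, −1.73 to 1.53, and −2.41 to 0.89, leave room for changes of more than 2-fold in either direction at D10 and D15. At D25, the log2 fold change was 2.71 (SE 0.79, 95% interval 1.05 to 4.37, adjusted p = 0.0253), with 3 of 3 mutant libraries above all 4 WT libraries. At that stage, 16.5% of all tested genes passed the threshold of 0.05, 5.18% as higher in mutants and 11.3% as lower. The corresponding shares in either direction were 0.198% at D10, 0.00902% at D15, and 4.74% at D20.

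The call for Mhc at D25 was close to the threshold. It was lost when WT replicate 1, WT replicate 3, or any one of the 3 mutant libraries was left out, with adjusted p-values of 0.0797, 0.0625, 0.0758, 0.0603, and 0.0524 by edgeR with Benjamini-Hochberg adjustment, and it was lost with sequencing batch as a term (log2 fold change 2.70, adjusted p = 0.0972) and in a fit of these 7 libraries alone (2.65, adjusted p = 0.115). The log2 fold change stayed between 2.34 and 3.43 when single libraries were left out. Within batch 3, where 3 mutant libraries meet 1 WT library, the difference of mean log2 levels was 2.25. Counts in bulk antennae are relative to the other RNA. A change in muscle cells, in Mhc RNA per muscle cell, or in other cells therefore cannot be told apart.

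**Figure D2:**
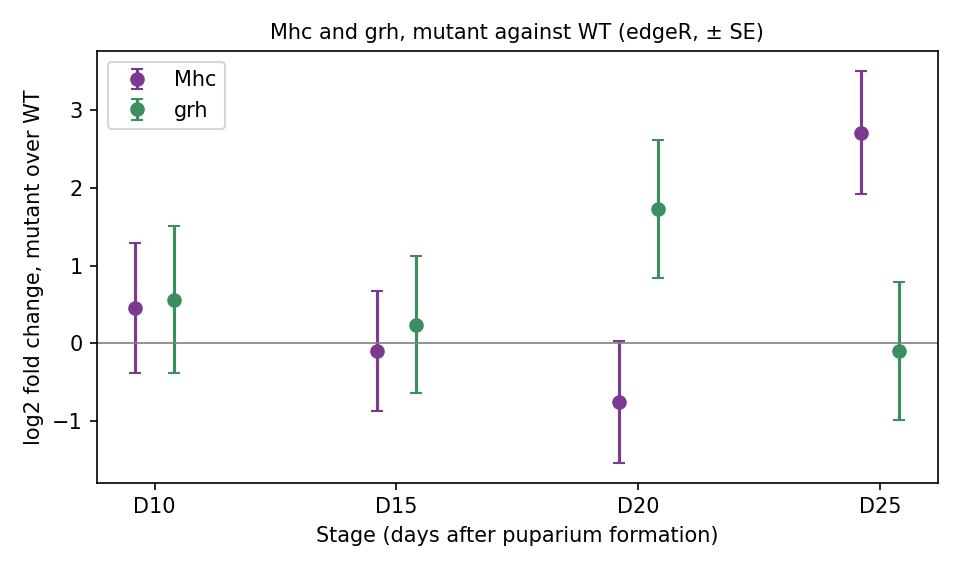
log2 fold change of mutant over WT (vertical axis, with the standard error of the edgeR fit) for Mhc and grh at D10, D15, D20, and D25. Mhc at D25, with 2.71, is the single value past the threshold, and grh has its largest value at D20, with 1.73 and an adjusted p of 0.402.

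Over successive stages in WT, Mhc rose from D15 to D20, with a log2 change of 2.60 (SE 0.76, adjusted p = 0.0277), and the 4 D20 libraries all exceeded the 4 D15 libraries. In that step, 11.6% of tested genes passed the threshold and 5.57% did so as higher. The step was of like size within batch 1, at 2.79, and within batch 3, at 2.44, and it was lost, with adjusted p-values of 0.0502 to 0.0834, without WT D15 replicate 1, 2, or 4 or WT D20 replicate 1, 2, or 3. The change from D10 to D15 was 1.50 (SE 0.81, adjusted p = 0.187, 25.7% of genes called), and that from D20 to D25 was −0.74 (SE 0.72, adjusted p = 0.768, 0.00902% called). Between D10 and D25, the first and last stages, the log2 change was 3.36 (SE 0.89, adjusted p = 0.00471), a comparison in which 38.5% of genes were called and which was chosen after the values were seen.

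In mutants, Mhc had log2 changes of 0.95 (SE 0.84, adjusted p = 0.456) from D10 to D15, 1.95 (SE 0.86, adjusted p = 0.118) from D15 to D20, and 2.73 (SE 0.88, adjusted p = 0.0942) from D20 to D25. None of these steps passed the threshold in edgeR's test, in which 10.3%, 20.2%, and 3.36% of all genes did. DESeq2's test placed the last step past it, with 2.69 and an adjusted p of 0.0169. From D10 to D25, Mhc rose by 5.63 (SE 1.01, adjusted p = 1.87e-04), with 37.8% of genes called. The change from D20 to D25 differed between genotypes by 3.47 (SE 1.13), mutant minus WT, with an unadjusted p of 0.00555 and an adjusted p of 0.321 in edgeR's test of the difference, and 0.0541% of genes were called in it.

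The genes of the contractile apparatus were taken from a list of symbols, of which 20 matched a gene and 19 passed the count minimum, Mhc among them. Their summed normalized count, without Mhc, was 28705 to 67866 in WT D25 libraries and 88469.7 to 93024 in mutant D25 libraries. These ranges do not overlap, but their separation depended on the size factors. Scaled by library size only (CPM), the sum was 750 to 2466 in WT D25 and 1908 to 2182 in mutant D25, within the WT range. The gene with the most counts, LOC105189609, held 20.3 to 32.4% of counts in WT D25 and 34.1 to 40.4% in mutant D25. Its part in the separation was not tested. At D25, 5 of the 18 genes other than Mhc were called higher in mutants and 0 lower, against 5.18% of all tested genes called higher. The count was 2 with sequencing batch as a term, 1 with library size only, and 0 in a fit of the 7 D25 libraries alone. It was 0 without WT replicate 3 or mutant replicate 2, 1 without WT replicate 1, mutant replicate 1, or mutant replicate 3, and 8 without WT replicate 4. The median log2 fold change of the 18 was 0.73, against −0.0069 over all tested genes, and 17 of the 18 were positive. At D10, D15, and D20, 0 of the 18 were called, with medians of 0.099, −0.10, and 0.013. DESeq2 called 0, 0, and 1 of them at these stages.

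Among those called at D25, Obsc, for the M-band protein obscurin, had a log2 fold change of 1.90 (SE 0.60, adjusted p = 0.0364), and tn, for a TRIM-family protein that keeps fly muscle intact, had 1.77 (SE 0.56, adjusted p = 0.0368) by edgeR. Actn, for the Z-disc cross-linker alpha-actinin, was higher by 0.79 and Mlc-c, for the light chain of myosin outside muscle, by 0.61. The last of them, unc-45, for the chaperone that folds myosin heads, was at 0.48 and was named after its value was seen. Actn, Mlc-c, and unc-45 are used in many cells other than muscle, as are the list genes Tm1, cpa, cpb, and flr.

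tn followed Mhc from library to library. At D25, it was at 109, 608, 106, and 554 in WT and at 1361, 1127, and 1087 in mutants, so that no WT library reached the lowest mutant one. Obsc was at 145, 449, 221, and 1562 in WT and at 2510.1, 1957, and 2264 in mutants, again without overlap, but WT replicate 4 was its highest WT library. Both are given in order of replicate number.

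The light chains Mlc2 and Mlc1 were ordered differently from Mhc across the WT D25 libraries. Mlc2, for the regulatory light chain of myosin, was at 5117, 10084, 823, and 2689 normalized counts in WT and at 8225, 9498, and 10589 in mutants, and the genotypes overlapped. Mlc1, for the essential light chain, was at 2148, 5643, 359, and 686 in WT and at 4108, 4520.2, and 4611 in mutants, with WT replicate 2 above all mutants. WT replicate 4 was thus the second highest WT library for Mhc and the second lowest for Mlc1 and Mlc2. The log2 fold changes at D25 were 1.00 for Mlc2, 0.98 for Mlc1, 0.99 for the tropomyosin gene Tm2, and 0.93 for wupA, the gene for troponin I, and none passed the threshold.

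**Figure D3:**
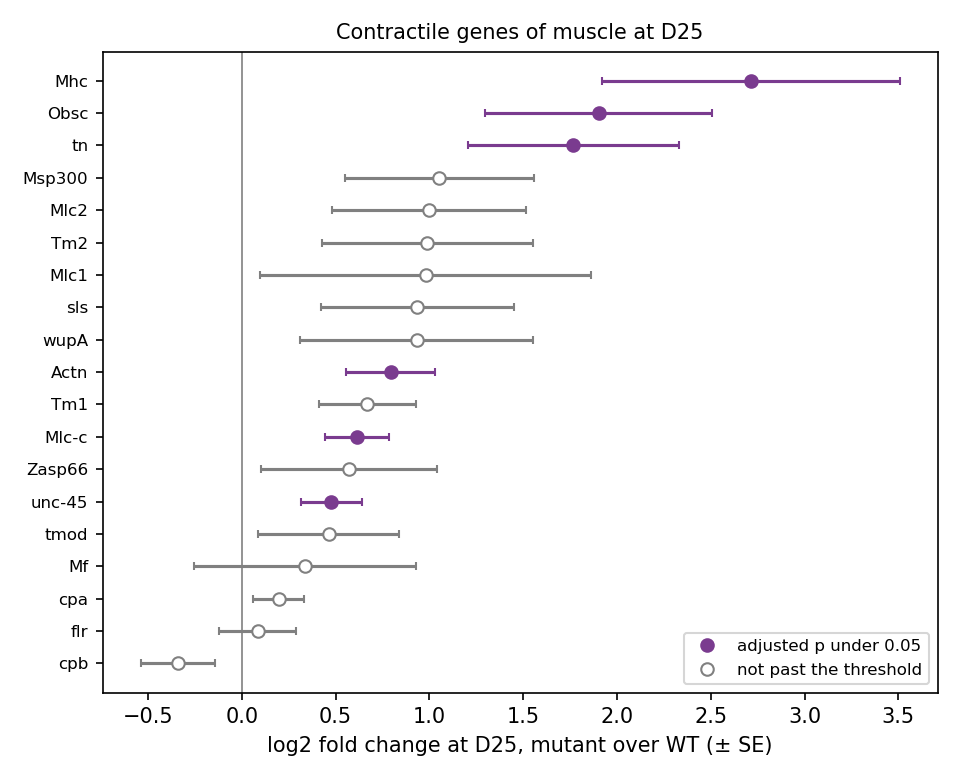
log2 fold change at D25, mutant over WT (horizontal axis, with the standard error), of the 19 tested genes of the contractile list, Mhc included. Filled points passed an adjusted p of 0.05 in edgeR's test, and all but cpb lie above 0, from 0.085 for flr to 2.71 for Mhc.

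From D15 to D20 in WT, 3 of the 18 other contractile genes rose with Mhc and 0 fell, against 5.57% of all genes called higher. They were Mlc1, with a log2 change of 4.17 (SE 0.95), Tm2, with 2.15 (SE 0.55), and Mlc2, with 1.86 (SE 0.50). In mutants over the same step, 3 rose and 0 fell, Mlc1 by 4.29, Mf by 2.74, and Tm2 by 1.80, where Mf encodes the thick-filament protein myofilin, against 9.35% of all genes. From D20 to D25 in mutants, Tm2 rose by 2.48 and Zasp66, a Z-disc gene, by 2.18, against 1.73% of all genes called higher. Between D10 and D25, 6 of the 18 rose and 1 fell in WT, and 9 rose and 0 fell in mutants, where 20.7% and 17.8% of all genes were called higher. The gene that fell in WT was Actn, by 0.92 on the log2 scale, where 17.8% of all genes were called lower.

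Of a second list, with calcium-handling genes, genes of muscle identity, and genes that attach muscle to matrix, 14 symbols matched and 13 were tested. At D25, 2 were higher in mutants and 0 lower, Scgdelta by 1.73 (SE 0.54) and Scgalpha by 0.97 (SE 0.22), both for sarcoglycans, which anchor the muscle membrane, where 5.18% of all genes were called higher and 11.3% lower. The calcium release channel gene RyR had 1.20 (adjusted p = 0.0594) and nau, the insect counterpart of MyoD, had 1.77 (adjusted p = 0.0888) by edgeR with Benjamini-Hochberg adjustment, and neither was past the threshold. At D20, Scgbeta, for another sarcoglycan, was lower in mutants by 1.58 (SE 0.32), the single call of the list, where 3.99% of all genes were called lower. At D10 and D15, 0 were called.

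With the batches pooled, the ranges of grh overlapped between successive stages in both genotypes. Within batch 3, both mutant D20 libraries lay above the mutant D15 and D25 libraries. Within batch 1, successive WT stages overlapped, but the WT D10 libraries lay above those of WT D25. At D10, grh was at 1467, 1954, and 1308 normalized counts in WT and at 1214, 2862, and 3068 in mutants. The mutant libraries of batch 2 lay above all WT libraries and the one of batch 1 below them. At D15, grh was at 696, 1287, 2291, and 3719 in WT and at 1478, 1907, and 3837 in mutants. The genotypes overlapped, and the 2 highest libraries, WT replicate 4 and mutant replicate 3, were both of batch 3. At D20, grh was at 907, 1072, 1460.3, and 7309 in WT and at 1487, 11519.98, and 14373 in mutants. All 3 libraries of batch 3 lay above all 4 of batch 1 at this stage, in both genotypes. At D25, grh was at 229.6, 1046, 524, and 5745 in WT and at 2360.5, 2004, and 912 in mutants. The mutant libraries lay within the range of WT, which was set by replicate 4 of batch 3.

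From D10 to D25, the WT means of grh were 1576 ± 337 (SD, n = 3), 1998 ± 1322, 2687 ± 3089.97, and 1886 ± 2595 (SD, n = 4 for each of the last 3). The mutant means were 2381 ± 1017, 2407 ± 1257, 9127 ± 6769, and 1759 ± 755 (SD, n = 3 per stage). In WT D20 and WT D25, the SD exceeded the mean. Mutant D20 had the highest mean of the 8 groups, but its lowest library lay below the highest library of every other group. The ranges of libraries overlapped between all neighbors in the order of the group means.

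The log2 fold change of grh, mutant over WT, was 0.56 (SE 0.95, adjusted p = 1) at D10, 0.24 (SE 0.89, adjusted p = 0.926) at D15, 1.73 (SE 0.89, adjusted p = 0.402) at D20, and −0.097 (SE 0.89, adjusted p = 0.951) at D25 by edgeR with Benjamini-Hochberg adjustment. The interval at D20, −0.13 to 3.58, spans 0, and that at D25, −1.96 to 1.77, leaves room for changes of 3-fold in either direction. The value at D20 was 0.40 within batch 1 and 0.82 within batch 3, and that at D25 was −1.82 within batch 3. Without WT D25 replicate 4, the value at D25 turned to 1.54 (adjusted p = 0.145), and with sequencing batch as a term the values at D10 and D15 turned to −0.48 and −1.32.

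Over stages in WT, grh had log2 changes of 0.30 from D10 to D15, 0.40 from D15 to D20, and −0.51 from D20 to D25, with edgeR adjusted p-values of at least 0.845. In mutants, the changes were −0.029 (adjusted p = 0.987), 1.89 (SE 0.98, adjusted p = 0.191), and −2.33 (SE 1.00, adjusted p = 0.234). Within batch 3, the last 2 of these were 2.25 and −2.98. With batch as a term both passed the threshold, at 1.93 (adjusted p = 0.0151) and −2.70 (adjusted p = 0.00340), as did the changes from D10 to D25 in WT (−1.26, adjusted p = 0.0344) and in mutants (−2.03, adjusted p = 0.0171), against 0.19 and −0.47 without it. These calls depended on whether the batch was in the model. Within batch 1, the change from D10 to D25 in WT was −1.63, and the libraries of these stages did not overlap. The difference between genotypes of the change from D20 to D25 was −1.82 (adjusted p = 0.654).

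The epithelial list held 34 matched genes of cell junctions and polarity, all tested, with grh among them. At D25, 9 of the 33 others were higher in mutants and 0 lower, again against 5.18% of all tested genes called higher. The count was 1 with sequencing batch as a term and 0 in a fit of the 7 D25 libraries alone, and it ranged from 1 to 14 when single libraries were left out, with 1 without mutant replicate 1, 2 without mutant replicate 2 or WT replicate 1, 3 without WT replicate 3, 4 without mutant replicate 3, and 14 without WT replicate 4. Their median log2 fold change was 0.56, against −0.0069 over all tested genes, and 30 of 33 were positive. With tested genes split into 5 classes by gene span, the medians of the longest class and the one next to it were 0.50 and 0.30. Most genes of the list fall in these 2 longest classes, although it reaches into all 5, from crok with 1390 bases to Fas3 with 389485. The largest were l(2)gl, a gene of basolateral polarity, at 0.93 (SE 0.26), and 3 septate junction genes, Fas3 at 0.86 (SE 0.29), vari at 0.84 (SE 0.21), and Mcr at 0.79 (SE 0.20). At D10, D15, and D20, 0 of the 33 were called, with medians of 0.032, 0.093, and 0.27, and DESeq2 called 0, 0, and 2. The summed normalized count of the list without grh was 103662 to 175118 in WT D25 and 148208 to 190305 in mutant D25, which overlap.

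In other steps, 4 of the 33 epithelial genes rose and 0 fell from D10 to D15 in WT, with sas at 3.22 and uif at 2.66, genes of apical membrane proteins, as the largest, against 15.2% of all genes called higher. In mutants, the same step had sas at 2.61 and uif at 2.93, 2 of 33, against 5.71%. From D15 to D20, 1 rose and 1 fell in WT, Gli at 0.72 and vvl at −1.64, for a protein of tricellular junctions and a POU-domain transcription factor, where 5.57% of all genes were called higher and 6.01% lower. In mutants 6 rose and 0 fell over this step, against 9.35% of all genes, and the largest were the claudin genes sinu at 0.87 and kune at 0.86, the septate junction gene Tsf2 at 0.74, and the apical polarity gene par-6 at 0.69.

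Of 19 genes of cuticle and barrier formation, 1 was called at D25, dpy, for a giant matrix protein that tethers epidermis to cuticle, higher in mutants by 1.80 (SE 0.44), a share near the 5.18% of all genes called higher. From D15 to D20 in mutants, 9 rose and 3 fell, against 9.35% of all genes called higher and 10.8% lower. Gasp, for a chitin-binding protein, had 5.76 and the cuticle gene snsl had 5.38, whereas tyn, for a zona pellucida-domain protein, had −7.16. In WT, 4 rose and 2 fell over this step, with snsl at 3.23 and tyn at −6.93, against 5.57% of all genes called higher and 6.01% lower. The summed count of the cuticle list was 181390.5 to 311274 in WT D20, and 260617 in mutant D20 replicate 1 against 506417 and 509447 in the other mutant D20 libraries. The latter were also those with high grh, and both are of batch 3, whereas mutant D20 replicate 1 is of batch 1. Over the 27 libraries, the median Pearson correlation of the 19 cuticle genes with grh was 0.22, with 3 over 0.5. With Mhc it was 0.56, with 11 over 0.5.

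Genes with the most similar pattern differed between the markers. Over the 27 libraries, the named genes with the highest Pearson correlation with Mhc, on log2(normalized count + 1), were tn at 0.95, TpnT, for troponin T, at 0.94, Mlc2 at 0.92, PH4alphaEFB, for a collagen prolyl hydroxylase, at 0.91, and wupA at 0.91. For grh they were Rab3GAP1 at 0.92, UBL3 at 0.91, N, for the receptor Notch, at 0.91, and CaMKI at 0.90. The correlation of Mhc with grh was 0.15 (Spearman's coefficient 0.044), and 0.37 for deviations from the group means. These values describe 27 libraries that share stage, genotype, batch, and depth, and no test was made on them.

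Among the 18 other contractile genes, the median correlation with Mhc was 0.55, with 10 over 0.5, and that with grh was 0.0048, with 3 over 0.5. Among the 33 other epithelial genes, the median with Mhc was 0.33, with 12 over 0.5, and that with grh was 0.64, with 19 over 0.5. Over all tested genes, the median absolute correlation was 0.38 with Mhc and 0.35 with grh. With grh, the glial marker repo was at 0.66, the support cell marker sv at 0.69, and the 4 neuron markers at −0.32 to 0.17. For deviations from the group means, the median with grh was 0.67 for the 33 genes and 0.55 for the 2070 tested genes of longest span. The epithelial genes nearest to grh were Vinc, for the adhesion protein vinculin, at 0.86, cora, for a septate junction protein, at 0.85, and crb, for the apical determinant Crumbs, at 0.84. The list was not uniform, as crok was at −0.67 and the claudin genes pck and kune were at −0.40 and −0.27.

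**Figure D4:**
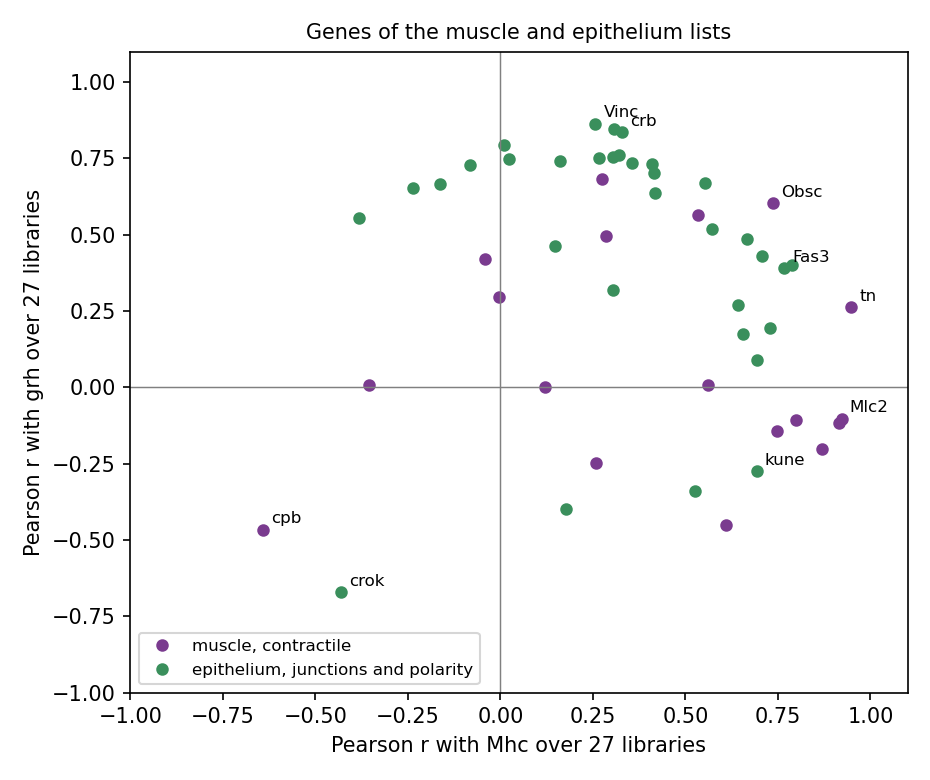
Pearson correlation over 27 libraries with Mhc (horizontal axis) and with grh (vertical axis) of 18 contractile genes of muscle and 33 epithelial genes, 1 point per gene. Contractile genes reach 0.95 with Mhc, epithelial genes reach 0.86 with grh, and both lists also have genes with negative values, cpb and crok among them.

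Both genes varied more between libraries of a group than most. The pooled within-group SD of log2 levels was 1.19 for Mhc, above that of 90.2% of tested genes, and 1.27 for grh, above 92.0%, against a median of 0.44. The SD of the 8 group means was 2.12 for Mhc, above 94.5% of genes, and 0.78 for grh, above 72.5%. Mhc thus differed between groups by more than within them, and grh did not. The exception to the spread of Mhc was mutant D25, where the SD was 0.12, against 1.96 in WT D25.

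Both genes are also long. In the RefSeq annotation of assembly Hsal_v8.6, Mhc spans 42186 bases from start to end with 39 annotated transcripts, longer than 91.1% of tested genes with a span, and grh spans 114524 bases with 1 transcript, longer than 96.9%. The authors' mapping limited introns to 7000 bases. Long genes moved together between libraries of a group, as seen when the 10347 tested genes with a known span were split into 5 classes by span. In the longest 2070 genes, the median deviation from the group mean was 0.72 in WT D25 replicate 4, −0.44 in WT D25 replicate 3, and −0.69 in mutant D20 replicate 1 (log2), and the deviation of grh in these libraries was 2.64, −0.82, and −2.08. The deviation of grh had the sign of that of the longest genes in 22 of 27 libraries, and that of Mhc in 17.

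Between genotypes, the change also ran along gene span. All 3 mutant D25 libraries but only 1 WT D25 library are of batch 3, so genotype and batch are largely confounded in this trend. At D25, the median log2 fold change, mutant over WT, ran from −0.61 in the shortest 2070 genes to 0.50 in the longest, and at D20 from −0.15 to 0.25. Mhc at 2.71 lies above the median of the longest 2070 at D25. The 18 other contractile genes ran from −0.34 to 1.90 at that stage, with a median of 0.73. When the smoothed trend along gene span in each library was taken as an offset in edgeR, an alternative added after this trend was seen, Mhc at D25 had a log2 fold change of 2.34 (SE 0.70, adjusted p = 0.0406), the rise of Mhc from D15 to D20 in WT had 2.71 (adjusted p = 0.00833), and grh at D20 had 1.39 (adjusted p = 0.352). In that fit, 2 of 18 contractile genes and 7 of 33 epithelial genes were called at D25.

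**Figure D5:**
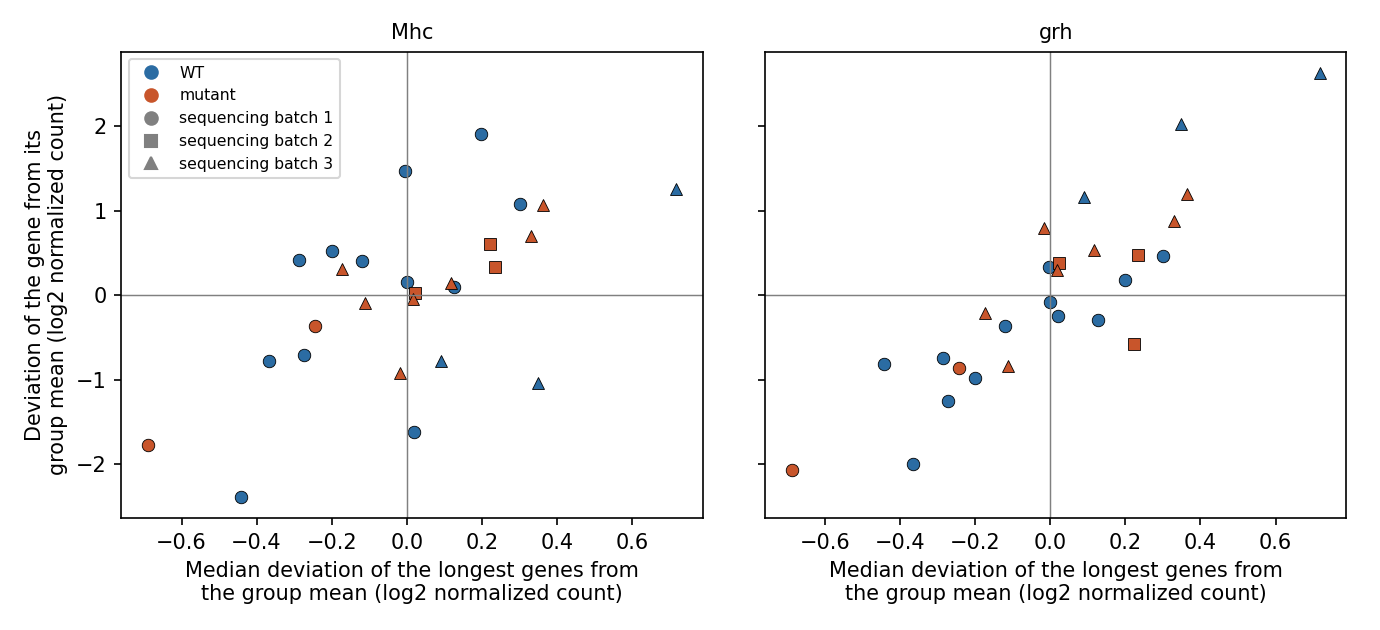
Deviation of Mhc (left) and grh (right) from their group means (vertical axis, log2 normalized count) against the median deviation of the longest 2070 genes (horizontal axis, log2 normalized count) in each of 27 libraries; color gives the genotype and marker shape the sequencing batch. grh rises with the long genes from mutant D20 replicate 1, at −0.69, to WT D25 replicate 4, at 0.72, and Mhc is more scattered.

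Markers of other cells moved at the late stages as well. nSyb, a neuron marker that encodes a synaptic vesicle protein, was lower in mutants by 1.94 (SE 0.23) at D20 and by 1.52 (SE 0.22) at D25 on the log2 scale. It was the single neuron marker of 4 that passed the threshold at D25, where the summed count of these markers was 7222 to 22159 in WT and 8563 to 9936 in mutants. Of 3 support cell markers, 2 were higher in mutants at D25, nompA by 1.63 and Su(H) by 1.12. The summed normalized count of the 3 was 3071 to 9241 in WT and 11403 to 14738 in mutants. This separation also depended on the size factors. Scaled by library size only (CPM), the sum was 80.2 to 356 in WT D25 and 267 to 308 in mutant D25, within the WT range. At D25, 0 of 4 glial, 0 of 5 hemocyte, and 0 of 2 fat body markers were called, where 5.18% of all tested genes were called higher and 11.3% lower. No tracheal marker was matched. The part of these other cells in the values of Mhc at D25 was not tested.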

How the data were processed

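RNA from pupal antennae was sequenced in 27 libraries. The authors mapped reads with STAR 2.6.1d, limiting introns to 7000 bases and trimming the batch with longer reads, and deposited a raw count per gene for each library. The methods for these libraries say only that reads were mapped to the genome. The paper describes a newer assembly of the species with its own curated gene annotation. The unstranded column was used. The deposited table of counts normalized with DESeq2 1.34.0 was not used. Levels are counts divided by DESeq2 (1.42.0) size factors. The 11086 of 14407 genes whose mean count was 10 or more were tested in edgeR 4.0.16 (R 4.3.3, limma 3.58.1) with TMM scaling, 8 groups of genotype and stage, the quasi-likelihood test, two-sided, and Benjamini-Hochberg adjustment (threshold 0.05). The SE is the log2 fold change divided by the root of F. On simulated data for the D20 comparison, edgeR recovered 95.5% of 198 genes changed by 2 on the log2 scale among 11061, with 5.03% false calls. Depth was 3454610 to 52275933 counts, and limits from counts cover counting error only.

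Lists were matched by symbol in the RefSeq table (Hsal_v8.6), where 4115 counted genes have one. Named were Mhc and grh, the study's other markers, up to 4 called genes of each list and comparison with the largest change, and the 5 named genes most correlated with each marker, 1 of which is not reported here. Members and lists were chosen with earlier results of these data known. Of the markers of cell types, those not called are given as counts. Alternatives were DESeq2's test and size factors, library size only, 2 other filters, a term for batch or for replicate number, fits of only the groups compared, each library left out, and gene span as an offset, added after seeing the data.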

Additional observations from a re-analysis of the deposited data

Results flagged for a closer look

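Among the 6 groups of 4 WT libraries in which Mhc or grh could be examined for a library far from the others, 2 had one. The normalized count of grh was 7309 in WT D20 replicate 4, against 907 to 1460.3 in the other WT D20 libraries. In WT D25 replicate 4 it was 5745, against 229.6 to 1046. Both libraries are of sequencing batch 3, and the other libraries of their groups are of batch 1. The gap to the nearest library exceeded Dixon's 95% limit for 4 samples, which normally distributed values exceed in about 1 of 20 groups. The gap was taken on normalized counts and not on the log2 scale used for the spread and the fold changes. The flag therefore applies to the scale of counts alone. Without WT D20 replicate 4, the log2 fold change of grh at D20 was 2.96, and without WT D25 replicate 4 that at D25 was 1.54. No group of Mhc held such a library.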

How the results depend on the processing

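The rise of Mhc between D10 and D25 in mutants kept its call in all 9 alternatives and without any single library, and that in WT kept it except in a fit of the 2 groups compared alone (3.41, adjusted p = 0.0610). For mutants over WT at D25, Mhc was past the threshold in 7 of 9 alternatives, and weaker with batch as a term (2.70) and in the 2 groups alone (2.65). From D20 to D25 in mutants, it passed only with DESeq2's test (2.69, adjusted p = 0.0169) and with gene span as an offset (2.84, adjusted p = 0.0446). These p-values are Benjamini-Hochberg adjusted, from edgeR unless DESeq2 is named.

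grh changed sign or call more often. With batch as a term it was −0.48 at D10, −1.32 at D15, −0.42 for D10 to D15 in WT, −0.084 for D15 to D20 in WT, −1.26 for D10 to D25 in WT, 1.93 for D15 to D20, −2.70 for D20 to D25, and −2.03 for D10 to D25 in mutants, and the last 4 of these passed the threshold. With library size only, it was −0.13 for D15 to D20 and −0.57 for D10 to D25 in WT, and −3.15 for D20 to D25 in mutants, which passed the threshold (adjusted p = 0.0274). For D10 to D15 in mutants it was 0.016 with DESeq2's test and 0.018 with its size factors. With gene span as an offset, it was −0.046 at D15, −0.19 for D10 to D15 in WT, and −0.42 for D10 to D25 in WT.

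Replicate numbers do not pair the libraries, as 3 of 12 same-numbered pairs deviated together with a correlation over 0.1 (range −0.39 to 0.48). With a replicate block in edgeR, grh passed the threshold at D20 with 2.70 (adjusted p = 0.00538), at D25 with 1.62 and a turned sign (adjusted p = 0.0385), and for D15 to D20 in mutants with 1.73 (adjusted p = 0.0432). It was −0.58 for D10 to D15 and −1.40 for D10 to D25 in WT, and 0.56 for the difference of D10 to D15 between genotypes. In that fit, 8 contractile and 16 epithelial genes were called at D25 and 2 epithelial genes at D20.

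Leaving out single libraries gave, for Mhc, −0.023 to 1.43 at D10, −0.38 to 0.36 at D15, 2.34 to 3.43 at D25, and 2.38 to 3.06 for D15 to D20 in WT. For grh it gave −0.27 to 0.74 at D15, −0.46 to 1.54 at D25, −0.20 to 0.58, −0.77 to 0.90, −2.14 to 0.73, and −1.45 to 0.56 for D10 to D15, D15 to D20, D20 to D25, and D10 to D25 in WT, −0.53 to 0.23 for D10 to D15 in mutants, and −0.83 to 0.17 for the difference of that step. Each turn of sign of grh in WT arose without replicate 4.

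At D25, contractile genes called numbered 1 with library size only, 2 with batch as a term, 2 with gene span as an offset, 0 in the 2 groups alone, and 0 to 8 without single libraries. Epithelial genes called numbered 3, 1, 7, and 0 in these fits, 5 without a filter, and 1 to 14 without single libraries. At D20, DESeq2 called 1 contractile and 2 epithelial genes, and leaving out single libraries gave 0 to 1 epithelial genes. The causes were not tested. The lowest raw count was 65 for Mhc and 114 for grh.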
